A study of Mus musculus with 6 samples.

Results

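Atf4 and 9 genes listed with it as downstream stress response genes (Asns, Ddit3, Trib3, Chac1, Sesn2, Cebpb, Ddit4, Vldlr and Cth) were followed in mouse prostate tumour tissue after castration. They were taken by symbol from the 24421 genes of the deposited tables, and 10 of 10 passed the filter on low values. RNA sequencing had been done on 6 prostate samples, 4 castrated and 2 intact. Both groups carried PB-Cre4 with LoxP-flanked alleles of a tumour suppressor gene: a probasin promoter, itself driven by androgens, expresses Cre in prostate epithelium and deletes the gene there, so that other cells of the tissue keep it. The castrated group is labelled Cx and the intact group Intact, and no other treatment is given for either. Age, strain background and time since castration are not given in the sources used here, and nothing says that the samples came from separate animals, so p-values reflect only how far these samples differ from each other, and that spread may be technical.

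The integrated stress response couples amino acid shortage, unfolded protein, viral RNA or heme shortage to translation. Kinases that sense these states phosphorylate the initiation factor eIF2, which slows most translation but favours translation of the Atf4 mRNA, whose upstream reading frames otherwise hold it back. The ATF4 protein then pairs with other leucine zipper proteins of the C/EBP and CHOP type and switches on genes of amino acid supply, redox balance and, when stress lasts, cell death. Since much of the control of ATF4 acts on its translation, an Atf4 RNA level does not measure the protein, and protein was not measured here.

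ATF4 dimers with C/EBP proteins bind a composite site, the C/EBP-ATF response element, searched here as the letters TGATGNAA on both strands. Promoter windows of RefSeq on GRCm38.p6 run from 250 bases before to 50 bases after each gene start. Of the 10 genes, 9 had such a window (all but Cth), with 2 windows for Vldlr. The element stood in a window of Asns, Trib3, Chac1 and Vldlr, 4 of the 9, and 4.51% of all 27025 genes with a window hold it. These 4 stretches are shown because they set the genes with a direct match apart from Atf4, Ddit3, Sesn2, Cebpb and Ddit4, whose windows hold no such letters. Capitals mark the match, which reads as its reverse complement in Trib3, Chac1 and Vldlr, and sequences run 5′ to 3′ on the strand of the gene. No window of the 9 genes held the endoplasmic reticulum stress element, searched on both strands too and present for 0.137% of all genes.
Asns, chr6:7693214-7693243, minus strand: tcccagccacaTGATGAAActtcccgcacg
Trib3, chr2:152344031-152344106, minus strand: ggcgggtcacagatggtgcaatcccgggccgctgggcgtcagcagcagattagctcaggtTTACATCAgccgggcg
Chac1, chr2:119350992-119351116, plus strand: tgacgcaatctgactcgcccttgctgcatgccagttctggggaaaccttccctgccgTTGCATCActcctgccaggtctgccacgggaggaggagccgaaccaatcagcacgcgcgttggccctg
Vldlr, chr19:27216809-27216838, plus strand: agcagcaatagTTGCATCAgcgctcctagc
The match begins 23 bases before the RefSeq start in Asns, 193 bases before it in Chac1 and 200 bases before the second start in Vldlr. In Trib3 it begins at base 15 counted from the RefSeq start, and it lies upstream of the GENCODE transcripts, the longest of which start at base 152344032, with 2 of the 76 bases shown in untranslated exon sequence. In Asns and Vldlr all 30 bases shown also lie in untranslated exon sequence of a GENCODE transcript. A match describes the letters of a window and does not show that a factor binds there.

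Levels below are rescaled CPM, that is the deposited CPM (reads scaled to a common library total) divided by a size factor per sample, and differences are log2 differences, castrated minus intact, on the log2(rescaled CPM + 0.5) scale, on which differences of genes at low levels come out smaller than their ratios. Library totals over all genes ran from 43679297 to 59170793 reads. The prostate secretory list was at a summed level of 9.51 to 111 rescaled CPM in castrated samples and 673 to 978 in intact samples, with 4 of 8 tested markers lower, 0 higher and none at 0 in every sample. Basal epithelial markers summed to 1197 to 4194 rescaled CPM in castrated samples and 4487 to 4878 in intact samples, with 2 of 10 lower, 0 higher and a median log2 difference of -0.80. Smooth muscle markers summed to 356 to 564 in castrated samples and 281 to 288 in intact samples, with 0 of 10 called in limma, 7 at an unadjusted p under 0.05 (all higher), 0 in edgeR and 7 in DESeq2. Luminal epithelial markers summed to 8320 to 12400 in castrated samples and 11627 to 11785 in intact samples, with 1 of 12 lower. None of the basal, smooth muscle or luminal markers was at 0 in every sample, and the part of these cell types in the gene levels given below was not tested. Of the seminal vesicle markers, 4 of 7 (Svs1, Svs3a, Svs4 and Svs6) were at 0 in every sample, the other 3 staying below the filter.

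None of the 10 genes passed the threshold in limma with Benjamini-Hochberg adjustment over all 13898 tested genes, where 1.97% of genes did (0.698% higher and 1.27% lower). At an unadjusted p under 0.05, 5 of the 10 did (15.9% of all tested genes), 4 with a lower and 1 with a higher level in castrated samples (8.06% and 7.84% of all). Those 5, Ddit3, Trib3, Chac1, Ddit4 and Cebpb, were also the ones whose groups did not overlap, as was the case for 26.6% of all tested genes. On reads recovered from the CPM, edgeR called 0 of the 10, with 5 at an unadjusted p under 0.05, against 1.46% called among all genes, and DESeq2 called 1, Trib3, against 9.3%. The median log2 difference of the 10 was -0.28, beside 0.00 over all tested genes, and the sign was negative for 8 of 10, beside 49.9% of all. In a tissue made of many cell types, fewer cells of a type and less RNA per cell cannot be told apart.

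**Figure D1:**
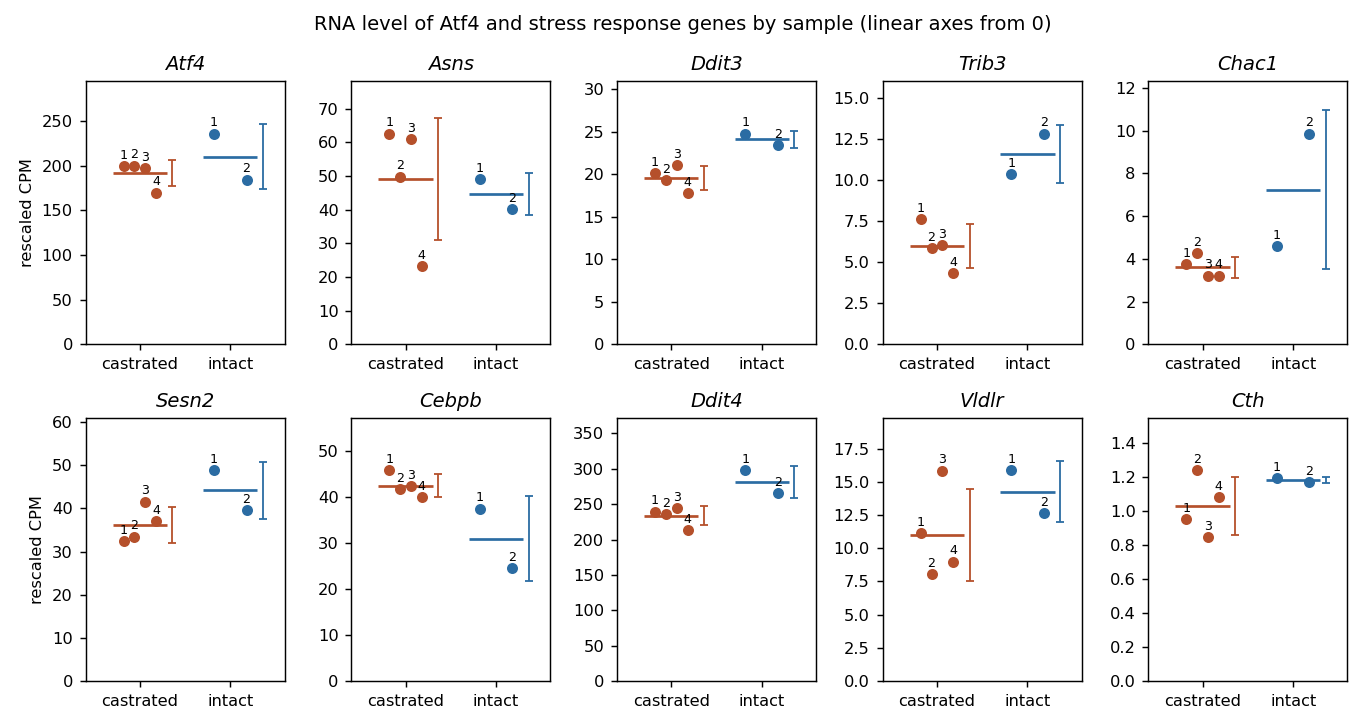
Rescaled CPM of each gene (linear axes from 0) in castrated samples 1 to 4, left, and intact samples 1 and 2, right; points are samples with their replicate number, lines are group means and bars span 1 SD either side of the mean. Castrated samples lie below both intact samples for Ddit3, Trib3, Chac1 and Ddit4 and above both for Cebpb, while the groups overlap for the other 5 genes.

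Atf4 encodes the transcription factor at the centre of the response (chromosome 15, 80255184 to 80257541, plus strand). It was at 199, 200, 197 and 170 rescaled CPM in castrated samples 1 to 4, and at 236 and 184 in intact samples 1 and 2. The castrated samples lie close together apart from the fourth, and 3 of them fall between the 2 intact samples, so the groups overlap. The log2 difference was -0.13 (95% interval -0.44 to 0.19, limma adjusted p = 0.715). Without intact sample 1 it was 0.048, and without intact sample 2 it was -0.31. Atf4 was counted with 10072 to 11201 reads per sample, so counting error is small beside the spread between samples.

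Cebpb encodes C/EBP-beta, a leucine zipper factor that ATF4 induces and that can pair with it, and it is also active in myeloid cells and in inflammation (chromosome 2, 167688915 to 167690418, plus strand). It had 45.9, 41.8, 42.5 and 40.1 rescaled CPM in castrated samples 1 to 4, against 37.5 and 24.5 in intact samples 1 and 2. This was the highest log2 difference of the 10 at 0.48 (interval 0.06 to 0.90, limma adjusted p = 0.239). The 4 castrated samples lie close together, and intact sample 2 stands well below the rest: the log2 difference was 0.18 without it and 0.78 without intact sample 1. Exons of the antisense gene Tmem189 cover 20.7% of the exon bases of Cebpb, and no source used here says if strands were kept apart in counting, so reads of that stretch cannot be assigned. Among 8 tested neutrophil markers 4 were higher and 0 lower in castrated samples in limma (2 called in edgeR and 8 in DESeq2). At an unadjusted p under 0.05 in limma there were 8, 7 higher and 1 lower. Summed levels over the 10 markers were 1016 to 1316 rescaled CPM in castrated samples and 1260 to 3981 in intact samples. No neutrophil marker was at 0 in every sample. Of 10 macrophage markers 0 passed in limma, with 2 at an unadjusted p under 0.05, 0 in edgeR and 2 in DESeq2, and sums of 827 to 1273 in castrated samples and 892 to 1108 in intact samples. The part of these cells in the Cebpb level was not tested.

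Ddit3 encodes CHOP, the factor through which a lasting stress response promotes cell death (chromosome 10, 127290774 to 127296288, plus strand, covering 2 GENCODE entries of that symbol). It stood at 20.1, 19.4, 21.1 and 17.8 rescaled CPM in castrated samples 1 to 4, against 24.8 and 23.4 in intact samples 1 and 2. All castrated samples lie below both intact samples, by a small margin. The log2 difference of -0.29 had an interval of -0.58 to -0.01 (limma adjusted p = 0.295), and it ranged from -0.34 to -0.25 with 1 sample left out. Antisense exons, of Mars or Gm4189, cover 4.73% of its exon bases.

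Trib3, a pseudokinase that CHOP and ATF4 induce and that restrains both ATF4 and AKT, had the lowest log2 difference of the 10 in limma (chromosome 2, 152337422 to 152344032, minus strand), while that of Chac1 was lower in edgeR (-1.01, against -0.96 for Trib3) and DESeq2 (-1.01, against -0.96) and without intact sample 1. Its levels were 7.61, 5.83, 6.05 and 4.34 rescaled CPM in castrated samples 1 to 4, against 10.3 and 12.8 in intact samples 1 and 2. Every castrated sample is thus below both intact samples, and castrated sample 4 is the lowest. Means were 5.96 ± 1.34 in castrated samples (SD, n = 4) and 11.6 ± 1.75 in intact samples (SD, n = 2). The log2 difference of -0.92 (interval -1.48 to -0.36) equals 1.89-fold lower, and it missed the threshold at a limma adjusted p of 0.114, placing Trib3 at rank 789 of 13898 by p. DESeq2 gave it an adjusted p of 0.0139 and limma with array weights 0.0372, settings in which 9.3% and 6.86% of all genes were called, and edgeR 0.119. Its log2 difference ranged from -1.07 to -0.77 with 1 sample left out. Trib3 was counted with 269 to 442 reads in each sample but intact sample 2, which had 733.

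Chac1 encodes an enzyme that breaks down glutathione and is switched on by ATF4, ATF3 and CHOP (chromosome 2, 119351229 to 119354381, plus strand). It was at 3.75, 4.25, 3.22 and 3.21 rescaled CPM in castrated samples 1 to 4, and at 4.61 and 9.86 in intact samples 1 and 2. The groups do not overlap, but intact sample 1 lies just above castrated sample 2 and intact sample 2 far above all others. The log2 difference was -0.83 (interval -1.56 to -0.10, limma adjusted p = 0.246), and it became -0.33 without intact sample 2 and -1.35 without intact sample 1. Recovered reads numbered 183 to 237 in 5 samples and 564 in intact sample 2. Of the 10 genes Chac1 had the widest range over the 6 samples, 1.48 on the log2 scale.

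**Figure D2:**
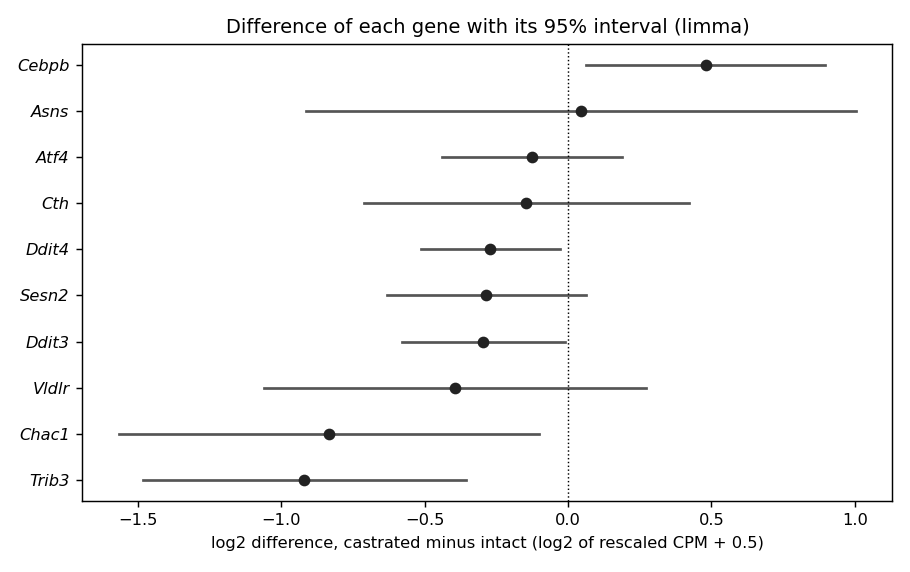
Log2 difference, castrated minus intact, of each gene (points) with its 95% interval from limma (lines), ordered from the highest at the top to the lowest; the dotted line marks 0. Cebpb lies above 0 with its interval, Ddit3, Ddit4, Chac1 and Trib3 lie below 0 with theirs, and the other 5 intervals include 0; none of the 10 passed after adjustment over all genes.

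Asns encodes asparagine synthetase, the classic gene of the amino acid response (chromosome 6, 7675169 to 7693254, minus strand). It had 62.6, 49.8, 61.0 and 23.2 rescaled CPM in castrated samples 1 to 4, and 49.1 and 40.3 in intact samples 1 and 2. Castrated samples thus hold both the highest levels and the lowest, with sample 4 at well under the level of every other sample. The log2 difference was 0.04 with the widest interval of the 10, -0.91 to 1.00 (limma adjusted p = 0.976). Without castrated sample 4 the log2 difference was 0.37, and it was -0.11, -0.09 and -0.10 without castrated sample 1, castrated sample 3 or intact sample 2. Over the 7 markers of acid-secreting cells, castrated sample 4 also summed to 44.8 rescaled CPM, castrated samples 1 to 3 to 204, 176 and 233, and intact samples 1 and 2 to 74.6 and 68.7 (3 of 6 tested markers higher and 0 lower in limma, 0 called in edgeR and 3 in DESeq2, none at 0 in every sample). For fibroblast, endothelial and macrophage markers castrated sample 4 had the highest sums of the 6 samples (2074, 172 and 1273 rescaled CPM). For luminal, prostate secretory and B and plasma cell markers it had the lowest (8320, 9.51 and 461 rescaled CPM). Whether the cell makeup of castrated sample 4 bears on its Asns level was not tested.

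Cth encodes cystathionine gamma-lyase, which makes cysteine and, with it, feeds glutathione (chromosome 3, 157894248 to 157925077, minus strand). It was the weakest of the 10, at 0.951, 1.24, 0.844 and 1.08 rescaled CPM in castrated samples 1 to 4, and at 1.19 and 1.17 in intact samples 1 and 2. Only 48 to 69 reads per sample lie behind these values, and the groups overlap. Its log2 difference was -0.15 (interval -0.71 to 0.42, limma adjusted p = 0.835).

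Sesn2 and Ddit4 encode sestrin 2 and REDD1, both brakes on the growth kinase complex mTORC1, the first a leucine sensor and the second an activator of the TSC complex. Sesn2 (chromosome 4, 132492032 to 132510501, minus strand) was at 32.5, 33.4, 41.6 and 37.0 rescaled CPM in castrated samples 1 to 4, and at 48.8 and 39.5 in intact samples 1 and 2. Castrated sample 3 lies above intact sample 2, so the groups overlap by that sample. The log2 difference of Sesn2 was -0.29 (interval -0.63 to 0.06, limma adjusted p = 0.409). It was -0.44 without intact sample 2 and -0.14 without intact sample 1.
Ddit4 (chromosome 10, 59949669 to 59951834, minus strand) had 239, 236, 244 and 214 rescaled CPM in castrated samples 1 to 4, against 298 and 266 in intact samples 1 and 2. Its castrated samples sit together below both intact samples. The log2 difference was -0.27 (interval -0.51 to -0.03, limma adjusted p = 0.257), and it ranged from -0.35 to -0.19 with 1 sample left out. In percent, the fitted level of Ddit4 was 17.1% lower in castrated samples, a small shift in a gene counted with 12586 to 15192 reads.

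Vldlr encodes the very low density lipoprotein receptor, which takes up lipoproteins and is raised by ATF4 under stress (chromosome 19, 27216484 to 27254231, plus strand). It stood at 11.1, 8.08, 15.9 and 8.99 rescaled CPM in castrated samples 1 to 4, and at 15.9 and 12.6 in intact samples 1 and 2. Castrated sample 3 lies just below intact sample 1 and the other castrated samples are below both intact samples. The log2 difference was -0.39 (interval -1.06 to 0.27, limma adjusted p = 0.571), and -0.58 without castrated sample 3.

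**Figure D3:**
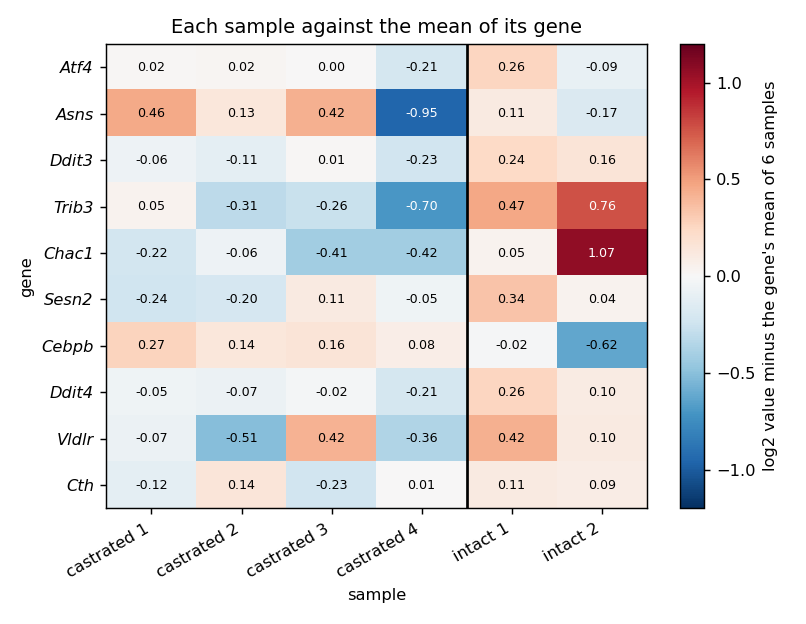
Log2 value of each gene in each sample minus the gene's mean over the 6 samples (rows are genes, columns castrated samples 1 to 4 then intact samples 1 and 2; red is above and blue below the mean). Castrated sample 4 holds the lowest single value, -0.95 for Asns, and intact sample 2 holds the highest, 1.07 for Chac1.

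Castrated sample 4 was the lowest of the 4 castrated samples for 7 of the 10 genes, all but Sesn2, Vldlr and Cth, beside 38.6% of all tested genes. Its median deviation from the mean of the other castrated samples was -0.18 over the 10 genes on the log2 scale, and -0.01 over all tested genes. The deviation of Asns was -1.29 and that of Trib3 -0.52, and those of Atf4 and Ddit4 were -0.23 and -0.17. With castrated sample 4 left out, 0 of the 10 genes passed in limma, although 1052 of 13786 genes then did.

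Levels of different genes were set against each other per kilobase of exon. Per kilobase the 10 genes stood in the same order in both groups: Ddit4, Atf4, Cebpb, Asns, Ddit3, Sesn2, Trib3, Chac1, Vldlr and Cth. Ddit4 was at 133 ± 7.70 rescaled CPM per kilobase in castrated samples (SD, n = 4) and 161 ± 12.9 in intact samples (SD, n = 2), and Atf4 followed at 81.2 ± 6.14 in castrated and 89.1 ± 15.4 in intact samples. Cebpb was at 28.3 ± 1.62 in castrated and 20.6 ± 6.11 in intact samples. At the low end Chac1 was at 2.20 ± 0.30 in castrated and 4.42 ± 2.27 in intact samples. Vldlr was at 1.09 ± 0.34 in castrated and 1.42 ± 0.23 in intact samples, and Cth at 0.369 ± 0.061 in castrated and 0.424 ± 0.006 in intact samples. Neighbours whose samples overlapped in castrated samples were Asns with Ddit3, Ddit3 with Sesn2 and Trib3 with Chac1, and in intact samples Cebpb with Asns, Ddit3 with Sesn2 and Trib3 with Chac1. Exons counted for these lengths are the union over all GENCODE transcripts, from 1504 bases in Cebpb to 10068 in Vldlr. No stretch of 50 bases of the 10 genes recurred, read in the same direction, in a transcript of a gene outside the 10. The reverse complement was not searched, so antisense overlaps such as that of Cebpb are not covered.

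Genes were then ranked by how closely their log2 profile over the 6 samples, centred on its mean, follows that of Atf4 and of Chac1, the member with the widest range. For Atf4 the nearest of 11094 genes were Mrto4, a ribosome assembly factor, March5, a ubiquitin ligase of mitochondria, and Ran, the GTPase of nuclear transport, at root mean square distances of 0.02, 0.03 and 0.03 on the log2 scale, against 0.14 for the spread of Atf4 itself about its mean. Mrto4 was at 32.4, 33.0, 32.7 and 28.5 rescaled CPM in castrated samples 1 to 4, and at 37.8 and 29.9 in intact samples 1 and 2. Like Atf4 it was thus highest in intact sample 1 and lowest in castrated sample 4. For Chac1 the nearest were P2rx2, an ATP-gated channel, Suox, sulfite oxidase, and Abhd12, a lipid hydrolase, at 0.16, 0.16 and 0.17, against 0.51 for Chac1 itself. P2rx2 had 46.9, 58.4, 45.2 and 41.2 rescaled CPM in castrated samples 1 to 4, against 74.3 and 107.9 in intact samples 1 and 2. Many genes were searched over few samples, so this likeness is a description of these samples.

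Upstream of ATF4, 4 kinases phosphorylate eIF2 and a phosphatase reverses it. Of 19 genes of this step, 0 passed in limma, with 1 at an unadjusted p under 0.05, 0 in edgeR and 1 in DESeq2, and their median log2 difference was 0.00. Without castrated sample 4 the limma count was 1, lower. Eif2ak4, which encodes the amino acid sensor GCN2, had a log2 difference of 0.05 (interval -0.30 to 0.39). Eif2ak3, for the endoplasmic reticulum sensor PERK, was at 0.09 (interval -0.24 to 0.42) and Eif2ak1, for the heme-regulated kinase, at 0.02 (interval -0.24 to 0.29). Eif2ak2, for the RNA-sensing kinase PKR, had the widest of these intervals, -0.72 to 0.44 around -0.14. Eif2s1, the phosphorylated subunit of eIF2, was at 0.01 (interval -0.23 to 0.25), and the phosphatase subunits Ppp1r15a and Ppp1r15b at -0.04 (interval -0.33 to 0.24) and -0.02 (interval -0.27 to 0.23). A catalytic subunit of the phosphatase, Ppp1cc, had 216 ± 3.78 rescaled CPM in castrated samples (SD, n = 4) and 283 ± 2.87 in intact samples (SD, n = 2), a log2 difference of -0.39 with a limma adjusted p of 0.0699, and Ppp1cb differed by 0.36 (limma adjusted p = 0.333). RNA levels do not measure phosphorylation.

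**Figure D4:**
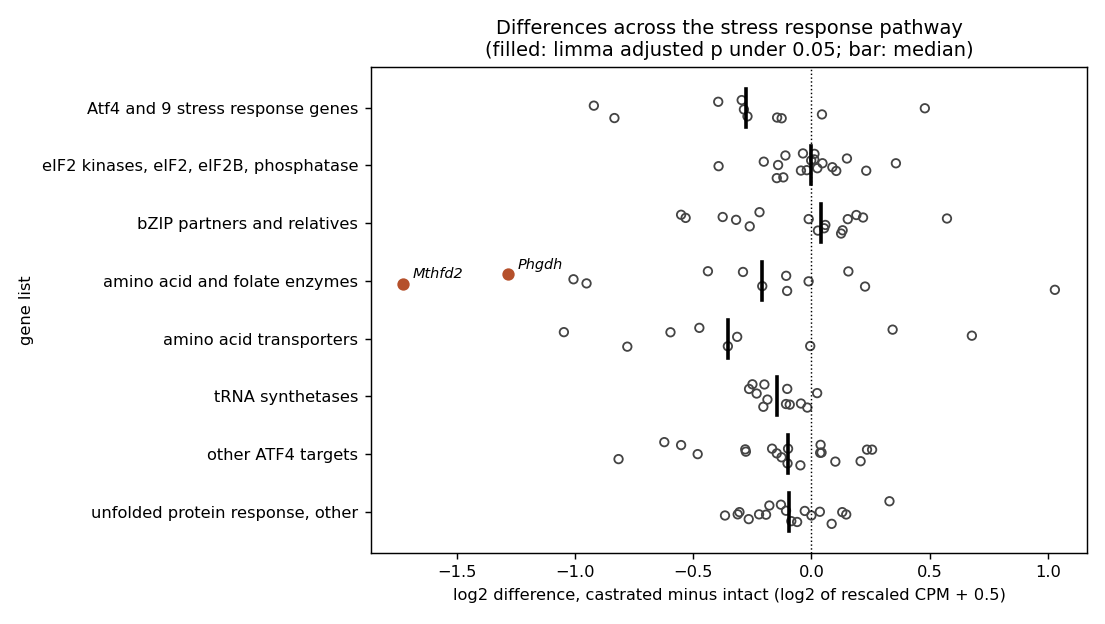
Log2 difference, castrated minus intact, of each tested gene (points) in 8 lists around the stress response, with the list's median as a bar and genes past the limma threshold filled and named. Mthfd2 and Phgdh are the only filled points among these 8 lists, and the medians run from -0.35 for amino acid transporters to 0.04 for leucine zipper partners.

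Among other genes that ATF4 is known to induce, 2 of 13 enzymes of amino acid and folate synthesis fell and 0 rose, with a median of -0.21. At an unadjusted p under 0.05 there were 3, 2 lower and 1 higher. The higher one, Aldh1l2, a mitochondrial folate enzyme named here after its values were seen, was at 7.43 ± 3.02 rescaled CPM in castrated samples (SD, n = 4) and 3.19 ± 0.583 in intact samples (SD, n = 2), a log2 difference of 1.03 (limma adjusted p = 0.238). Mthfd2, another enzyme of mitochondrial folate metabolism, fell to 9.91 ± 1.39 rescaled CPM in castrated samples (SD, n = 4), against 33.7 ± 1.43 in intact samples (SD, n = 2; limma adjusted p = 0.00927). Phgdh, which opens serine synthesis, fell to 64.7 ± 14.4 in castrated samples, against 155 ± 10.6 in intact samples (limma adjusted p = 0.0415). With 1 sample left out the call held in 4 of 6 fits for Mthfd2, lost without intact sample 1 or 2, and in 1 of 6 for Phgdh, that without castrated sample 4, where the list's count was 3. Phgdh also lost it with no filter (limma adjusted p = 0.0718) and when no trend was fitted (limma adjusted p = 0.0610).

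Of 9 tested amino acid transporters 0 passed in limma, with 6 at an unadjusted p under 0.05 (5 lower and 1 higher), 0 in edgeR and 4 in DESeq2, and the median was -0.35. The limma count was 3, all lower, without castrated sample 4 and likewise with array weights. Slc7a5, the large neutral amino acid carrier, was at 47.3 ± 7.77 and 80.8 ± 7.27 rescaled CPM (castrated, n = 4, and intact, n = 2; SD), a log2 difference of -0.78 (limma adjusted p = 0.0795). Slc7a1, the cationic carrier, had a log2 difference of -0.60 (limma adjusted p = 0.104). Of 12 tRNA synthetases 0 passed in limma, with 2 at an unadjusted p under 0.05, 0 in edgeR and 0 in DESeq2. Their median was -0.15 and 11 of 12 signs were negative. Gars and Mars, for the glycine and methionine enzymes, had log2 differences of -0.25 and -0.26 (limma adjusted p = 0.244 and 0.247).

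Leucine zipper partners and relatives of ATF4 gave 0 of 16 in limma, with 2 at an unadjusted p under 0.05, 0 in edgeR and 2 in DESeq2, and a median of 0.04. The stress-induced chromatin protein Nupr1 was at 1056 ± 83.2 and 1544 ± 28.2 rescaled CPM (castrated, n = 4, and intact, n = 2; SD), a log2 difference of -0.55 (limma adjusted p = 0.102), and Nfe2l1, which governs proteasome genes, differed by -0.38 (limma adjusted p = 0.133). The remaining ATF4 targets listed gave 0 of 19 in limma, with 1 at an unadjusted p under 0.05, 0 in edgeR and 1 in DESeq2, and a median of -0.10. This list holds Nupr1 too, and the autophagy gene Atg7 followed at 0.21 (limma adjusted p = 0.366). The unfolded protein response outside the ATF4 branch gave 0 of 18 in limma, with 0 at an unadjusted p under 0.05, 0 in edgeR and 0 in DESeq2, and a median of -0.10. Herpud1, of protein degradation at the endoplasmic reticulum, was at -0.37 (interval -0.73 to 0.00), and Xbp1, the factor of the IRE1 branch, at 0.33 (interval -0.01 to 0.67). The endoplasmic reticulum stress element stood in the windows of 7 of the 16 genes of that list with a window, beside 0.137% of all genes. The C/EBP-ATF response element stood in 5 of 8 tRNA synthetases with a window, beside 4.51% of all genes. Its counts were 2 of 12 for amino acid and folate enzymes and 2 of 6 for amino acid transporters. They were 2 of 16 for the remaining targets and 3 of 12 for leucine zipper partners, with Nupr1 in both. The eIF2 step gave 1 of 15, this unfolded protein response list 1 of 16 and immediate early genes 1 of 10. Lists for hypoxia, p53, the glucocorticoid receptor, mTORC1 and relatives of the members gave 0.

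Some members also answer to other inputs, so lists for these were read beside them. Hypoxia, which raises Ddit4, gave 0 of 12 targets in limma, with 1 at an unadjusted p under 0.05, 0 in edgeR and 0 in DESeq2, and a median of 0.26, with the log2 differences of Mxi1 and Egln1 at 0.47 and 0.26. Targets of p53, which raises Sesn2, gave 0 of 12, with 1 at an unadjusted p under 0.05, 0 in edgeR and 0 in DESeq2, and a median of -0.08, with Trp53inp1 at -0.60 and Eda2r at 0.23. Immediate early genes, which respond to tissue handling, gave 0 of 12, with 2 at an unadjusted p under 0.05, 0 in edgeR and 2 in DESeq2, and a median of 0.00, with Fosb at -0.999 and Nr4a1 at -0.41. Genes of the glucocorticoid receptor, which raises Ddit4 and is closely related to the androgen receptor, fell in 6 of 12 cases with 0 higher, among them Fkbp5 (-2.95), Zbtb16 (-3.71), Mt2 (-2.10), Nfkbia (-0.68) and Sgk1 (-2.22). That count was 3 without castrated sample 1 or 3 and 1 without intact sample 1 or 2. Zbtb16, at 0.565 to 1.01 rescaled CPM in castrated samples, passed the filter only through the intact samples. Without intact sample 1 or 2 it was not tested, so 11 of the 12 genes were. With 1 castrated sample left out, Fkbp5, Zbtb16 and Mt2 kept their calls each time. Sgk1 lost its call without castrated sample 1 or 3, and with no filter (limma adjusted p = 0.0583). Nfkbia kept its call only without castrated sample 4 among those fits. Nfkbia also lost it when no trend was fitted (limma adjusted p = 0.0535) and with the replicate block (limma adjusted p = 0.0574). Among 12 tested regulators of mTORC1 beside Sesn2 and Ddit4, 1 fell and 0 rose: Depdc5, of the GATOR1 complex that restrains mTORC1, at -0.96 (limma adjusted p = 0.0389), a call kept in 1 of 6 fits with 1 sample left out, that without castrated sample 4. Depdc5 also lost it with no filter (limma adjusted p = 0.0607) and when no trend was fitted (limma adjusted p = 0.0544).

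Close relatives of the members gave 0 of 13 in limma, with 2 at an unadjusted p under 0.05, 0 in edgeR and 0 in DESeq2. Without castrated sample 4 the limma count was 3, 1 higher and 2 lower. Ddit4l, the sister gene of Ddit4, was at 19.6 ± 1.12 rescaled CPM in castrated samples (SD, n = 4) and at 12.7 ± 3.84 in intact samples (SD, n = 2), a log2 difference of 0.63 (limma adjusted p = 0.161) whose sign is opposite to that of Ddit4.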

How the data were processed

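The authors deposited 1 table of CPM per sample, scaled to the reads counted in genes, for 4 castrated and 2 intact samples. The submitters' processing notes name TopHat2, HTSeq, edgeR and build mm10, without settings. Dividing by the CPM of 1 read gave whole numbers for 100% of values (tolerance 1e-06), so reads were recovered for edgeR 4.0.16 and DESeq2 1.42.0.

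Size factors came from medians of ratios. Genes reaching a CPM of 1 in 2 or more samples were fitted with limma 3.58.1 in R 4.3.3 (mean-variance trend, two-sided, Benjamini-Hochberg adjustment over 13898 genes, threshold 0.05), after the same steps were tested on simulated data. There were 18 alternatives: other pseudocounts, filters, scalings, weights and tools, a replicate block, and each sample left out. The members and lists were chosen with earlier results of these data known. Genes named are the members, the eIF2 kinases, Ppp1r15a, Ppp1r15b and Eif2s1, and per list up to 5 called genes, or the 2 with the smallest p; 2 genes under the rule are not reported here. Nearest profiles are the 3 closest genes with a mean of at least 5 rescaled CPM, numbered gene models left out. Positions are from GENCODE M21 (GRCm38, the assembly mm10 names).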

Additional observations from a re-analysis of the deposited data

Results flagged for a closer look

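Among the 51 genes that the naming rule gives, 4 had 1 castrated sample far from the other 3, by the gap to its nearest neighbour over the range of the group. Chance alone flags about 1 in 20 groups. Atf4 was at 169.8 rescaled CPM in castrated sample 4, and at 196.9 to 199.9 in the others. Herpud1 was also lowest there, at 80.1 rescaled CPM. So was Mrto4, at 28.5, but it was named for its likeness to Atf4, so its value there is no separate sign and leaves 3 of the 4. Ppp1r15b was lowest in castrated sample 1, at 124.3 rescaled CPM.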

How the results depend on the processing

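The count of members past the threshold stayed at 0 in 16 of 18 alternatives, those with 1 sample left out included, and was 1 with array weights and 1 in DESeq2, Trib3 both times (log2 differences of -0.88 and -0.96). With 1 sample left out, the log2 difference ran from -0.31 to 0.048 for Atf4 and from -0.11 to 0.37 for Asns, and the other 8 genes kept their sign in each alternative in which they were tested. That of Chac1 was -0.33 without intact sample 2. A mean CPM of at least 5 left out Chac1 and Cth. Over all genes, 274 calls became 170 with no filter, 954 with array weights, 1293 in DESeq2 and 417 with the replicate block, and from 1 (without intact sample 2) to 1052 (without castrated sample 4) with 1 sample left out. The labels number samples alike in both groups, and nothing says if the numbers pair samples. Correlations of deviations between same-numbered samples were 0.08 and 0.23 over 2 pairs. With 2 intact samples, the deviations of 1 mirror those of the other, so these correlations cannot decide on a pairing. The replicate block called 0 members. Single calls thus rest on few libraries, and the cause was not tested. Depth limits Cth most.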
